A study of Mus musculus with 2 samples.

Results

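This section covers 37 genes of fatty acid oxidation and ketone body handling in mouse liver, taken by gene symbol from a list of transporters, enzymes and regulators of the pathway. All 37 have a row among the 15526 genes of the deposited table. Livers came from female NOG-TKm30 mice of 22 weeks. NOG mice are immunodeficient, though macrophage markers were found in both pools. The TKm30 transgene, carried by both groups, encodes clone 30 of a mutated HSVtk (herpes simplex virus thymidine kinase) and is driven by mouse transthyretin control regions, which are active in hepatocytes. The labels name C57BL as the strain background and NOG in the genotype. The control group received 0% and the treated group 0.3% AAOT (acetoaceto-o-toluidide, which is built on the aromatic amine o-toluidine) for 4 weeks. Each group is 1 library made from RNA of 3 mice that was mixed before sequencing, so no spread between mice can be estimated and no test between the groups was possible.

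Fatty acids enter the cell through carriers such as CD36, are bound by FABP1 and are joined to coenzyme A by acyl-CoA synthetases. Long chains cross into mitochondria as carnitine esters, where a repeating cycle of dehydrogenation, hydration, dehydrogenation and thiolysis releases acetyl-CoA. Very long and branched chains are first shortened in peroxisomes. In liver the acetyl-CoA can be condensed to ketone bodies, which are exported to other organs during fasting. The nuclear receptor PPARalpha drives many of these genes, and malonyl-CoA, the first product of fatty acid synthesis, blocks the carnitine step.

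The control library held 18801241 reads and the AAOT library 16528533 reads assigned to genes. Levels are given in CPM (read counts relative to library size, as scaled by the authors). A fold is the plain ratio of the pools' CPM, and the range beside it is its exact 95% counting interval, which leaves out differences between mice, pools and library preparations and treats reads as independent molecules. A log2 ratio is log2((AAOT + 1)/(control + 1)) of CPM, counted for genes with a mean of at least 10 CPM. The labelled tissue was checked on 10 hepatocyte markers, of which all 10 were above 10 CPM. They summed to 93298 CPM in controls and 80223 CPM with AAOT. Of these markers 8 were lower in the AAOT pool, with a median log2 ratio of -0.31, and their part in the results below was not tested. Fewer cells of a type and less RNA per cell cannot be told apart in these pools.

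Promoter sequence was available from RefSeq (GRCm38) for 31 of the 37 genes, in 35 windows of 250 bases before a transcription start. Cpt1b, Crat, Acaa2, Decr1, Hsd17b4 and Vnn1 had none. Of these windows 3 are shown, for the fatty acid binding protein Fabp1, the mitochondrial gatekeeper Cpt1a and the peroxisomal bifunctional enzyme Ehhadh, whose transcripts were each lower in the AAOT pool by the 25% rule given further on, a call that Cpt1a and Ehhadh lose under another scaling. Bases within annotated exons were left out. The Cpt1a window lies inside the gene span given further on, so it precedes an internal start. Capitals mark the direct repeat of the nuclear receptor hexamer in Fabp1, the hexamer alone in Cpt1a and the CCAAT box in Ehhadh, each lying on the opposite strand.
Fabp1, chr6:71199629-71199826, plus strand: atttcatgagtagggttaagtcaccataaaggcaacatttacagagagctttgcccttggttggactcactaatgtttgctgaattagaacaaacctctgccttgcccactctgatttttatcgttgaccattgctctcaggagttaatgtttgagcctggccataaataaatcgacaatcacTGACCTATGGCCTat
Cpt1a, chr19:3323051-3323284, plus strand: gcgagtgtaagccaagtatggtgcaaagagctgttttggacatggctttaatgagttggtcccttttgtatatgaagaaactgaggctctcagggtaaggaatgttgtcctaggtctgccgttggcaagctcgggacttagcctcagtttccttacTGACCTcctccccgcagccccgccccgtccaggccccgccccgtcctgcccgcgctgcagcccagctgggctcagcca
Ehhadh, chr16:21787835-21788084, minus strand: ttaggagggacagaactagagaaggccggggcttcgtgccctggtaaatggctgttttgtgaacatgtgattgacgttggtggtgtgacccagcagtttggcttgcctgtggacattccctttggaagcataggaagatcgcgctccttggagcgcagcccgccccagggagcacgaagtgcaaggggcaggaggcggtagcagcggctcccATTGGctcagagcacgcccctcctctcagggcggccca

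PPARalpha with its partner RXR binds direct repeats of the hexamer AGGTCA with 1 base between them (DR1). The full repeat, 2 copies of AGGTCA with any base between them, searched on both strands, was in 0 of 35 windows and in 0.0335% of the 32851 windows of all genes. With at most 1 mismatch it was in 1 of 35 windows and 0.484% of all windows. That window is Fabp1, with the site 67 to 55 bases before the start and the change T4C, counted from 1 at the 5′ end of the repeat. The hexamer AGGTCA alone, which the repeat contains, was in 7 of 35 windows (Acadm, Acadvl, Cd36, Cpt1a, Creb3l3, Echs1 and Fabp1) and in 14.0% of all windows. The GC box GGGCGG was in 18 of 35 windows against 32.7% of all, and the CCAAT box in 16 of 35 against 33.8%. The cAMP response element TGACGTCA was in 0 of 35 windows and 1.55% of all. These are matches of letters, not measured binding.

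Most of the 37 genes were lower in the AAOT pool, by small ratios. They were chosen with earlier results of these data known. A wider list of fatty acid oxidation genes, described further on, had 28 of 51 below 0 and a median log2 ratio of -0.01. Together the 37 genes took up 1.27% of control reads and 1.10% of AAOT reads. All but Cpt1b reached the level of 10 CPM, which leaves 36. Of the 36, 30 had a log2 ratio below 0, against 53.6% of the 7761 genes at this level. The median was -0.21, against -0.02 for the 7761 genes. A smaller size was counted too, with the higher pool at least 25% above the lower one after the added constant. By this rule 8 of the 36 were lower (Vnn1, Crat, Acsl1, Crot, Bdh1, Fabp1, Ehhadh and Cpt1a), against 5.93% of all genes. With both columns set to the same sum, Cpt1a (log2 ratio -0.30) and Ehhadh (-0.31) fell short of it. Another 2 of the 36 (Cd36 and Acsl5) were higher by it, against 7.02%. Past 2-fold, 1 gene was lower, against 0.425%, and 0 were higher, against 0.773%. The counting interval lay below equality for 27 of the 36 and above it for 3, against 20.8% and 18.7% of all genes.

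Because most of these genes are abundant, the genes with a mean of at least 100 CPM were also taken as background. Of 29 pathway genes at that level, 26 were lower by any amount and the median was -0.23. Of the 1531 such genes in the table, 49.6% were lower and the median was 0.000. At least 25% lower by the same rule were 6 of the 29, against 7.58%, and at least 25% higher was 1 of the 29, Acsl5, against 10.2%. Counting intervals narrow with more reads, so more abundant genes fall outside equality. They lay below it for 24 of the 29 and above it for 2, against 509 and 538 of the 1531 genes. The level of 100 CPM was chosen after the values were seen. The cumulative curves show the pathway genes to the left of both backgrounds over most of their range.

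**Figure D1:**
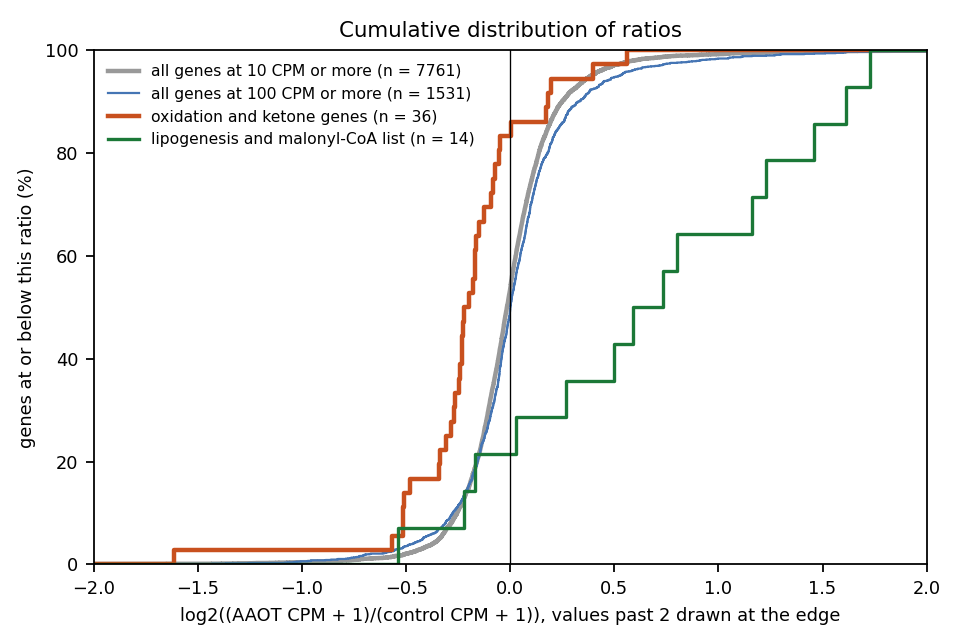
Cumulative share of genes (%) against the log2 ratio of AAOT to control, with 1 CPM added to each. Curves are the 36 pathway genes, all 7761 genes at 10 CPM or more, the 1531 at 100 CPM or more and the 14 genes of the lipogenesis and malonyl-CoA list; the pathway curve lies left of the backgrounds, with 30 of 36 genes below 0, and the lipogenesis curve lies right of them over most of its range.

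Levels per length spanned a wide range. Per kilobase of the longest annotated transcript, Fabp1 was highest in the control pool at 972 CPM per kilobase, followed by the thiolase Acaa1b at 726, Acaa2 at 464, Ehhadh at 337 and Acsl1 at 277. In the AAOT pool Fabp1 was at 696 CPM per kilobase and Acaa1b at 682. The lowest were the muscle-type carnitine palmitoyltransferase Cpt1b at 0.577 and the kinase Pdk4 at 4.99 CPM per kilobase in the control pool. The longest transcript need not be the form expressed, so these orders are approximate.

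**Figure D2:**
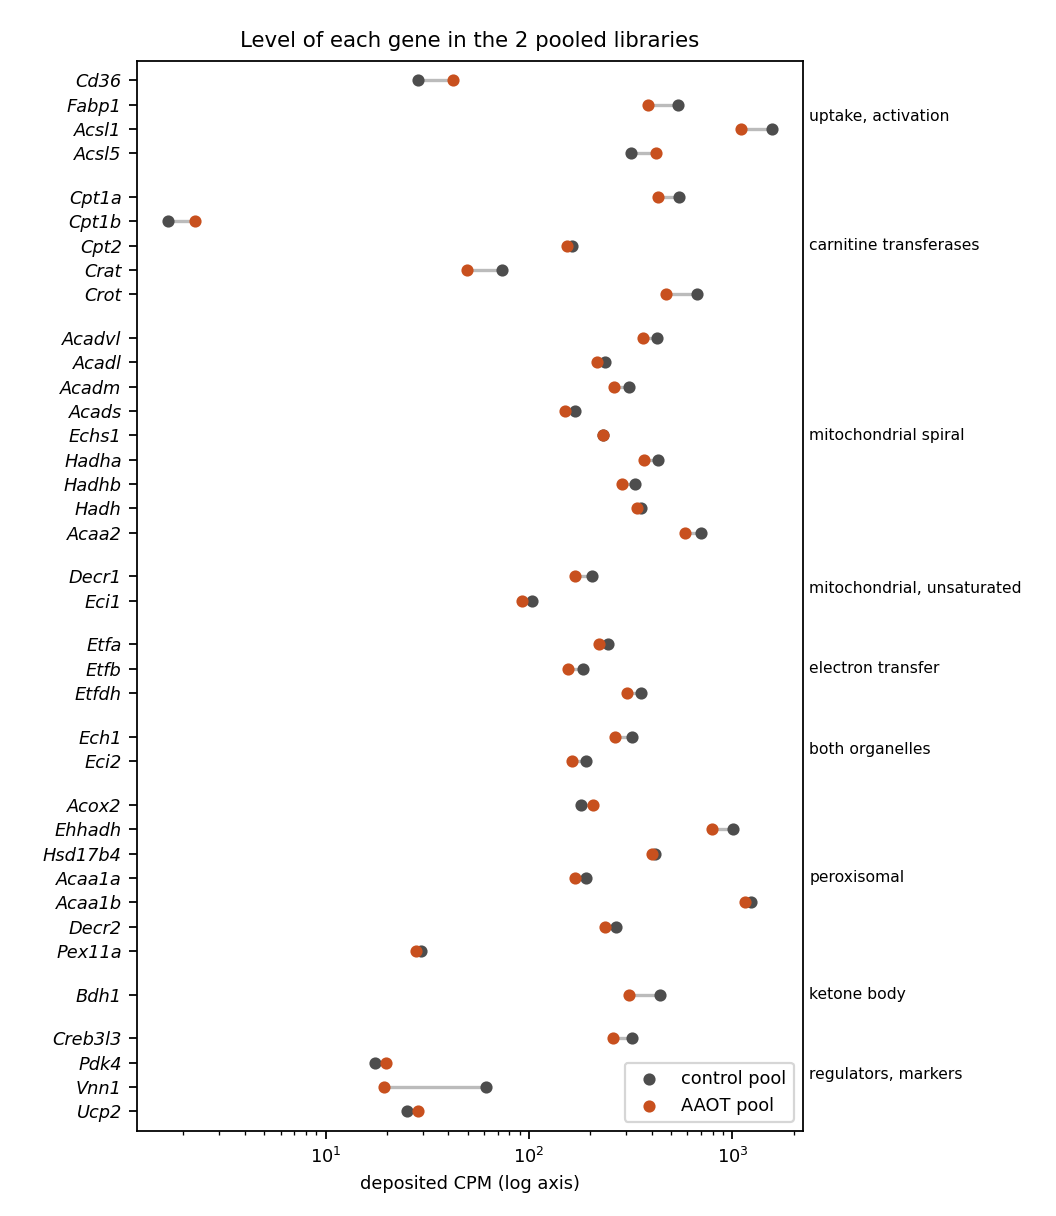
Deposited CPM (log axis) of each of the 37 genes in the control pool (grey) and the AAOT pool (orange), grouped by step. The levels of a gene mostly lie close together, with the orange point to the left; Vnn1 is the widest pair, at 61.6 and 19.4 CPM.

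Uptake and activation genes went in both directions. Fabp1 (chr6:71199879-71205034), which binds fatty acids in the hepatocyte cytosol, was at 537 CPM in controls and 385 CPM with AAOT, 1.40-fold lower (1.35 to 1.44). Acsl1 (chr8:46471037-46536051), the main long-chain acyl-CoA synthetase of liver, was at 1570 CPM and 1099 CPM, 1.43-fold lower (1.40 to 1.46). Its relative Acsl5, an acyl-CoA synthetase of mitochondria and endoplasmic reticulum, was at 318 CPM and 419 CPM, 1.32-fold higher (1.27 to 1.36). The synthetase isoforms therefore differed in opposite directions between the pools. The fatty acid carrier Cd36 was at 28.5 CPM and 42.5 CPM, 1.49-fold higher (1.33 to 1.67).

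Cd36 is also made by macrophages, endothelium and adipocytes. Of 11 macrophage markers 8 were above 10 CPM, with a median log2 ratio of 0.05, and the list summed to 391 CPM in controls and 410 CPM with AAOT. Of 9 sinusoidal endothelial markers 8 were above it, with a median of -0.03 and sums of 533 CPM and 544 CPM. Of 7 adipocyte markers 2 were listed and 0 reached 10 CPM: Fabp4 had 27 and 20 reads and Cidec 28 and 24 reads. Adipoq and Plin1 were not listed. Neither the macrophage nor the endothelial sum differed by as much as Cd36. Single low markers did, with Marco at 95 and 134 reads, 1.57-fold higher (1.19 to 2.06), and Lyve1 at 131 and 185 reads, 1.57-fold higher (1.246 to 1.98). Others went the other way. The macrophage marker Timd4 was at 83 and 53 reads, 1.41-fold lower (0.988 to 2.03). The endothelial marker Pecam1 was at 370 and 268 reads, 1.24-fold lower (1.06 to 1.46). The part of these cells in the level of Cd36 was not tested.

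The carnitine step converts acyl-CoA to acylcarnitine for transport. Cpt1a (chr19:3322326-3385735), the liver form of carnitine palmitoyltransferase 1 and the step that malonyl-CoA inhibits, was at 546 CPM in controls and 432 CPM with AAOT, 1.26-fold lower (1.23 to 1.30). Cpt2, which turns the ester back to acyl-CoA inside the mitochondrion, was at 162 CPM and 154 CPM, and its ratio of 1.05-fold lower had an interval of 0.999 to 1.11 that includes equality. The outer and inner carnitine palmitoyltransferases thus differed in the size of the ratio, and their intervals did not overlap.

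The short-chain and medium-chain carnitine acyltransferases had the larger ratios of this step. Crat (chr2:30400476-30416017), which moves acetyl groups to carnitine, was at 73.8 CPM and 49.5 CPM, 1.49-fold lower (1.37 to 1.63). Crot (chr5:8966033-8997146), the peroxisomal octanoyltransferase that passes shortened chains on to mitochondria, was at 672 CPM and 471 CPM, 1.43-fold lower (1.39 to 1.47). The carnitine carrier Slc25a20, from the wider list described further on, lay between Cpt1a and Crat, at 109 CPM and 80.6 CPM, 1.35-fold lower (1.26 to 1.45). The muscle form Cpt1b had 1.67 CPM and 2.27 CPM, with an interval of 0.824 to 2.26 around its ratio of 1.36. Its 50-base stretches are unique for 6.99% only, since 93.0% also lie in the gene model Gm44502, so its level is uncertain. Of 10 striated muscle markers 1 was listed, Acta1, with 1 read in each pool.

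The mitochondrial enzymes were lower by a narrow band of ratios. Of 14 genes (9 of the spiral, 2 for unsaturated chains and 3 of electron transfer), 13 were below 0, against 53.6% of all genes. The median was -0.21. By the 25% rule 0 were lower and 0 higher, against 5.93% and 7.02%. The counting interval lay below equality for 12 of the 14. It did so for 20.8% of all genes and for 509 of the 1531 at 100 CPM or more. The exceptions were the short-chain enoyl-CoA hydratase Echs1 and the hydroxyacyl-CoA dehydrogenase Hadh, whose intervals include equality.

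Acyl-CoA dehydrogenases carry out the first oxidation and are specialised by chain length. The very long-chain form Acadvl was at 423 CPM in controls and 363 CPM with AAOT, 1.17-fold lower (1.13 to 1.21). The medium-chain form Acadm was at 310 CPM and 261 CPM, 1.18-fold lower (1.14 to 1.23). The long-chain form Acadl was at 236 CPM and 216 CPM, 1.09-fold lower (1.04 to 1.14). The short-chain form Acads, at 168 CPM and 150.0 CPM, lay within the same band at 1.12-fold (1.06 to 1.18). All 4 of these dehydrogenases were thus lower. Relatives on the wider list went in both directions, such as Acad9, 1.19-fold higher (1.10 to 1.29), and Acad11, 1.12-fold lower (1.09 to 1.15).

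The trifunctional protein performs the next reactions on long chains and consists of products of Hadha and Hadhb, whose annotated genes lie 272 bases apart on chromosome 5. Hadha was at 429 CPM and 367 CPM, 1.17-fold lower (1.13 to 1.21). Hadhb was at 330.3 CPM and 287 CPM, 1.15-fold lower (1.11 to 1.19), so the intervals of the paired subunits overlap. For shorter chains, Echs1 was at 229.8 CPM and 230.2 CPM, giving a ratio of 1.002 (0.959 to 1.05), and Hadh at 353 CPM and 341 CPM, 1.04-fold lower (0.9996 to 1.07). The thiolase Acaa2, which ends the cycle, was at 703 CPM and 584 CPM, 1.20-fold lower (1.17 to 1.24). Within the spiral the intervals of Echs1 and Hadh thus lay nearer to equality than that of Acaa2.

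Unsaturated chains need extra enzymes. The dienoyl-CoA reductase Decr1 was at 204 CPM and 168 CPM, 1.22-fold lower (1.16 to 1.28), and had the largest ratio of the 14 mitochondrial genes. The isomerase Eci1 was at 104 CPM and 92.3 CPM, 1.13-fold lower (1.05 to 1.21). Ech1 and Eci2, found in both mitochondria and peroxisomes, were 1.21-fold lower (1.16 to 1.26) and 1.17-fold lower (1.12 to 1.23), from 321 CPM and 191 CPM in the control pool. The ratios of these auxiliary enzymes lay in the range of the spiral enzymes or just beyond it.

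Electrons from the acyl-CoA dehydrogenases pass to the electron transfer flavoprotein and its dehydrogenase. Its subunit Etfa was at 244 CPM and 221 CPM, 1.11-fold lower (1.06 to 1.16). Etfb was at 183 CPM and 155 CPM, 1.18-fold lower (1.12 to 1.246), but 67.3% of its 50-base stretches are shared with the gene model Gm45233. Etfdh was at 355 CPM and 302 CPM, 1.18-fold lower (1.13 to 1.22). All 3 lay within the band of the spiral enzymes.

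**Figure D3:**
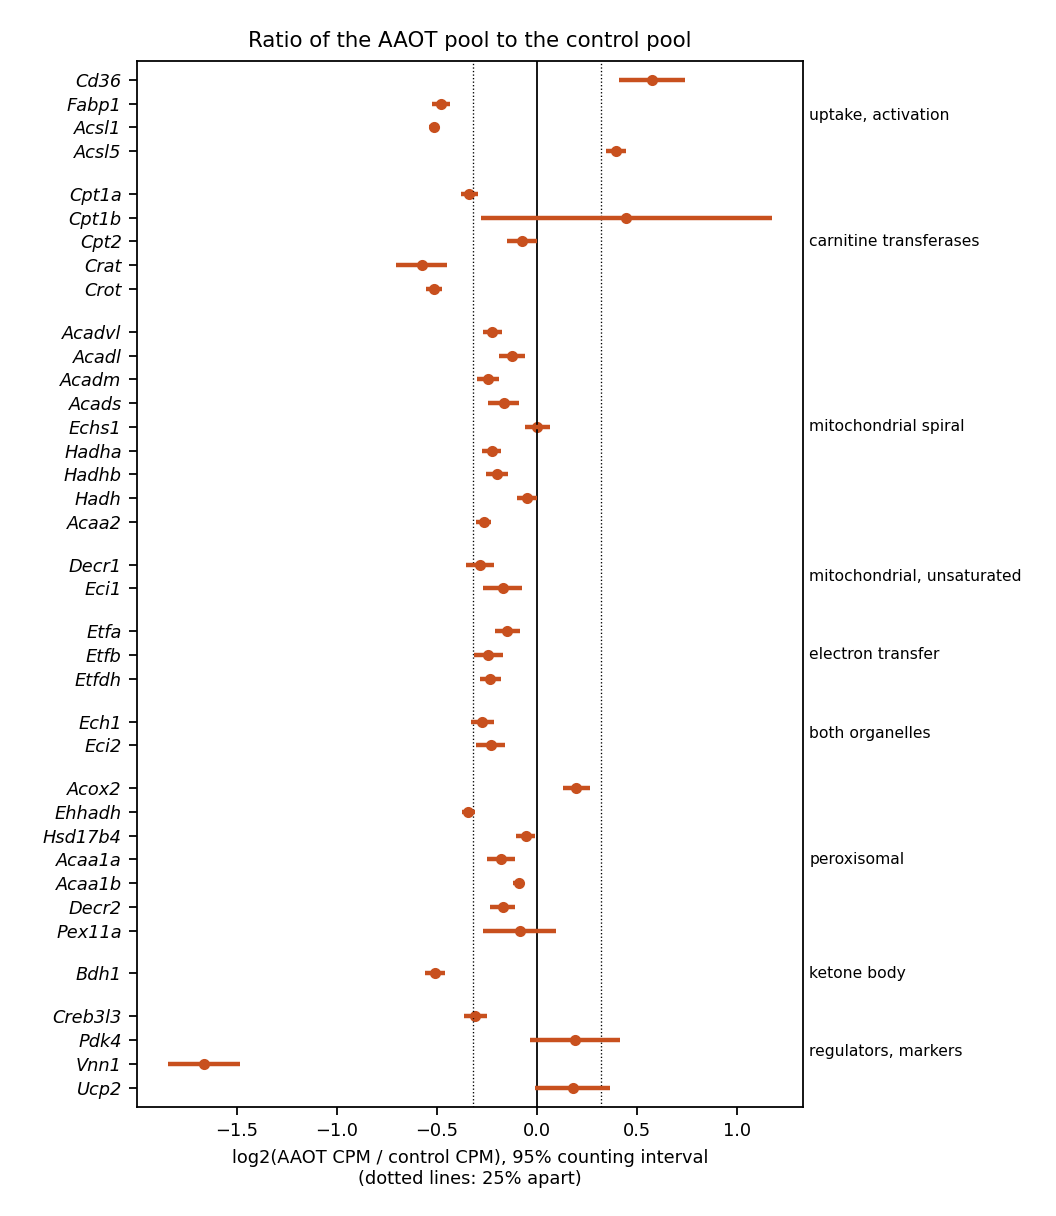
Log2 ratio of AAOT to control CPM for each of the 37 genes (points) with exact 95% counting intervals (lines), grouped by step; dotted lines mark pools 25% apart. Of the 14 mitochondrial genes 13 lie between equality and the left dotted line, Cd36, Acsl5 and the barely detected Cpt1b lie right of the right one, and Vnn1 lies at 3.17-fold lower.

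The 7 genes grouped as peroxisomal had a median ratio nearer to equality than the mitochondrial ones. Of these 7 genes 6 were below 0, against 53.6% of all genes. Their median was -0.09, against -0.21 for the 14 mitochondrial genes. With 1 library per group this difference of medians has no test. Its size depends on the grouping and the floor. Crot (log2 ratio -0.51) is peroxisomal but was counted with the carnitine step. Ech1 (-0.27) and Eci2 (-0.23), of both organelles, were left out of the 7 as well. With a floor of 50 CPM the peroxisomal median was -0.13. Ehhadh (chr16:21761285-21787834), which carries hydratase and dehydrogenase activities in peroxisomes, had the lowest ratio of the 7. It was at 1004 CPM in controls and 791 CPM with AAOT, 1.27-fold lower (1.24 to 1.30). The other bifunctional enzyme, Hsd17b4, which acts on branched chains and bile acid precursors, was at 417 CPM and 401 CPM, 1.04-fold lower (1.01 to 1.07). The branched-chain oxidase Acox2, which also works on bile acid precursors, was at 179.8 CPM and 206 CPM, 1.15-fold higher (1.09 to 1.20), and was the only higher peroxisomal member.

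The peroxisomal thiolases Acaa1a and Acaa1b are close copies on chromosome 9. Acaa1a was at 189.7 CPM and 167 CPM, 1.13-fold lower (1.08 to 1.19), and Acaa1b at 1227 CPM and 1152 CPM, 1.07-fold lower (1.04 to 1.09). Only 83.8% of the 50-base stretches of Acaa1a and 64.5% of those of Acaa1b are unique, so the split of reads between them is uncertain, while both were lower. The reductase Decr2 was at 268 CPM and 237 CPM, 1.13-fold lower (1.08 to 1.18). Pex11a, a factor of peroxisome division that PPARalpha induces, was at 29.5 CPM and 27.7 CPM, 1.06-fold lower, and its interval of 0.937 to 1.20 includes equality. Of 11 other peroxisome biogenesis genes above 10 CPM 8 were below 0, against 53.6% of all genes, with a median of -0.09. The counting interval lay below equality for 2 of the 11 only, and above it for 1. After the added constant 0 were at least 25% lower and 0 higher, against 5.93% and 7.02% of all genes. They ran from Pex19, at 123 CPM and 106 CPM, to Pex26, at 24.7 CPM and 30.9 CPM. Next to Pex19 lay Pex3 and Pex14, and next to Pex26 lay Pex13 and Pex5.

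Ketone body synthesis starts from acetyl-CoA and acetoacetyl-CoA. Among the 37 genes it is represented by Bdh1 (chr16:31422297-31458901), which interconverts acetoacetate and beta-hydroxybutyrate. Bdh1 was at 441 CPM in controls and 309 CPM with AAOT, 1.43-fold lower (1.38 to 1.48), beyond every mitochondrial oxidation gene. Acat1, the mitochondrial acetoacetyl-CoA thiolase at the start of the route, was read from the wider list and was at 577 CPM and 297 CPM, 1.94-fold lower (1.88 to 2.01). Both were lower, Acat1 by the larger ratio. The monocarboxylate transporter Slc16a1, which can carry ketone bodies out of the cell, was at 147 CPM and 99.6 CPM, 1.48-fold lower (1.39 to 1.57).

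The 3 genes with the highest ratios among those of the wider list above 10 CPM, named for that reason, were Acss2, Aacs and Acat2. Their products work in the cytosol. Below that level Eci3, with 28 and 106 reads, was 4.20-fold higher (2.75 to 6.62). Aacs, which activates acetoacetate for lipid synthesis, was at 29.5 CPM and 75.2 CPM, 2.55-fold higher (2.31 to 2.83). Acss2, which makes acetyl-CoA from acetate, was at 77.0 CPM and 207 CPM, 2.68-fold higher (2.52 to 2.86). The cytosolic thiolase Acat2 was at 53.5 CPM and 81.6 CPM, 1.52-fold higher (1.40 to 1.66), although only 54.1% of its stretches are unique. Mitochondrial Acat1 and cytosolic Acat2, which catalyse the same reaction, thus had opposite directions.

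**Figure D4:**
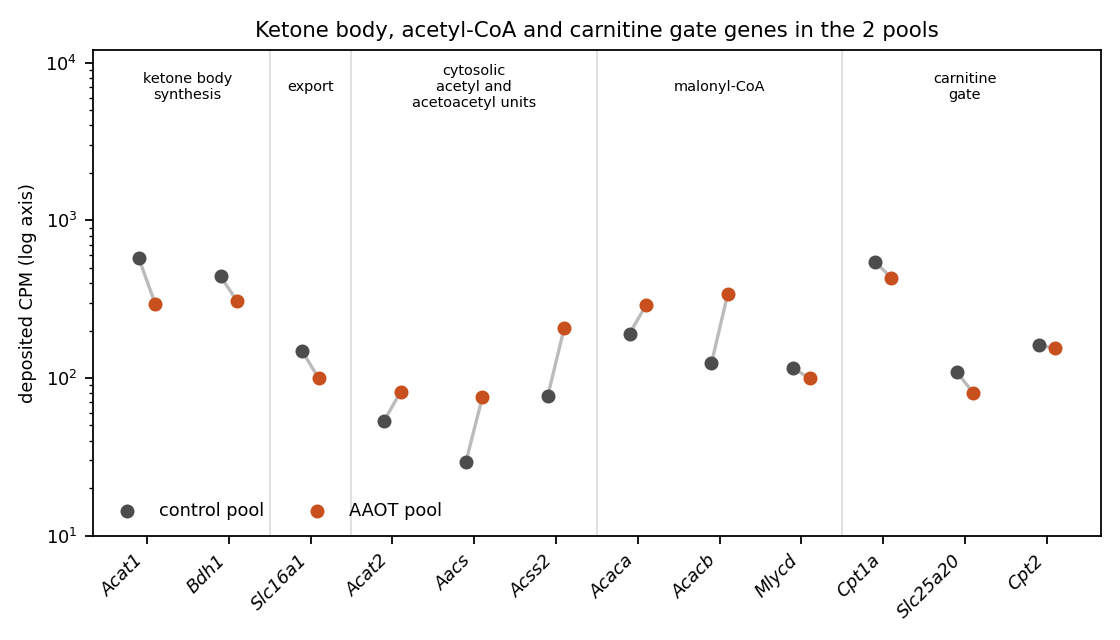
Deposited CPM (log axis) in the control pool (grey) and the AAOT pool (orange) for ketone body, export, cytosolic, malonyl-CoA and carnitine gate genes. The 3 cytosolic ones have the highest ratios of the wider list among genes above 10 CPM. The orange points lie lower for Acat1, Bdh1 and Slc16a1 and higher for Acat2, Aacs, Acss2, Acaca and Acacb, for example 29.5 and 75.2 CPM for Aacs.

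Malonyl-CoA is made by the acetyl-CoA carboxylases and removed by malonyl-CoA decarboxylase. Acacb, the carboxylase at the mitochondrial surface, was at 124 CPM in controls and 342 CPM with AAOT, 2.77-fold higher (2.63 to 2.90). Acaca, its cytosolic counterpart, was at 191 CPM and 289 CPM, 1.51-fold higher (1.45 to 1.58), with 47.4% unique stretches. The decarboxylase Mlycd was at 116 CPM and 99.3 CPM, 1.17-fold lower (1.09 to 1.245). Of 14 genes on the lipogenesis and malonyl-CoA list 9 were at least 25% higher, against 7.02% of all genes, and 1, the regulator Srebf1, was lower by that rule, against 5.93%. Past 2-fold 5 were higher, against 0.773%. The median log2 ratio was 0.66. The highest were the elongase Elovl6, at 71.6 CPM and 240 CPM, 3.35-fold higher (3.15 to 3.57), and the lipogenic regulator Thrsp, at 59.6 CPM and 184 CPM, 3.10-fold higher (2.89 to 3.32), followed by Acacb. The fatty acid synthase Fasn came next, at 624 CPM and 1463 CPM, 2.34-fold higher (2.29 to 2.40). At the other end lay Srebf1, at 529 CPM and 364 CPM, 1.45-fold lower (1.41 to 1.499), Mlycd, the elongase Elovl5, 1.12-fold lower (1.10 to 1.15), and the desaturase Scd1, with a ratio of 1.02 (1.01 to 1.03).

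Regulators and marker genes of the pathway showed the widest range, which was set by Vnn1 alone. Vnn1 (chr10:23894688-23905344), a pantetheinase that PPARalpha induces in liver, was at 61.6 CPM in controls and 19.4 CPM with AAOT, 3.17-fold lower (2.80 to 3.60), and was the only one of the 37 past 2-fold. Creb3l3, a hepatic transcription factor that acts with PPARalpha in fasting, was at 320.4 CPM and 259 CPM, 1.24-fold lower (1.19 to 1.29). Pdk4, which restrains pyruvate oxidation when fat is burned, was at 17.4 CPM and 19.8 CPM, giving a ratio of 1.14 (0.976 to 1.33). The mitochondrial carrier Ucp2, which Kupffer cells also express, was at 25.04 CPM and 28.3 CPM, giving a ratio of 1.13 (0.993 to 1.29). For Pdk4 and Ucp2 a difference was not detectable at this depth.

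Ppara itself was at 552 CPM and 375 CPM, 1.47-fold lower (1.42 to 1.52). Its coactivator Ppargc1a was at 8.19 CPM and 17.8 CPM, 2.18-fold higher (1.78 to 2.66). On a list of 42 other PPARalpha targets and regulators in the table, 35 were above 10 CPM, of which 7 were lower and 9 higher by the 25% rule, against 5.93% and 7.02% of all genes, and the median was 0.08. The lowest of the 35 were the fatty acid hydroxylase Cyp4a14, 1.51-fold lower (1.47 to 1.56), and the coenzyme A carrier Slc25a42, 1.51-fold lower (1.42 to 1.60), followed by Ppara. Below 10 CPM, Fgf21 had 53 and 17 reads and was 2.81-fold lower (1.60 to 5.18). The highest was the phosphatidate phosphatase Lpin1, at 93.5 CPM and 285 CPM, followed by Ppargc1a, the thioredoxin-binding protein Txnip, at 103 CPM and 205 CPM, and the glucose-responsive factor Mlxipl, at 162 CPM and 271 CPM. Cyp4a10, named after its values were seen, was at 648.9 CPM in both pools, with an interval of 0.974 to 1.03 and 69.5% unique stretches. Both directions thus held a larger share of this list than of all genes, and the list had no common direction.

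The wider list of fatty acid oxidation genes described here held 57 genes in the table, 51 of them above 10 CPM. Of the 51, 28 were below 0, 8 were lower and 6 higher by the 25% rule, against 5.93% and 7.02% of all genes, and the median was -0.01. Its lowest members, beside Acat1 and Slc16a1, were the peroxisomal and endoplasmic acyl-CoA synthetase Slc27a2, at 1311 CPM and 951 CPM, 1.38-fold lower (1.35 to 1.41), and the peroxisomal coenzyme A hydrolase Nudt7, at 128 CPM and 92.7 CPM, 1.38-fold lower (1.29 to 1.47). Its highest above 10 CPM, beside Acss2, Aacs and Acat2, was Hacl1, the peroxisomal lyase of alpha-oxidation. Hacl1 was at 439 CPM and 610.2 CPM, 1.39-fold higher (1.35 to 1.43). Only 47.6% of the stretches of Hacl1 are unique, with 50.5% shared with the gene model Gm49387, so its level is uncertain. Across this wider list the direction was mixed, with a median near that of all genes and a larger share than in all genes past 25% each way.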

How the data were processed

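Liver RNA of 2 pools was sequenced after ribosomal RNA depletion, with strand-specific libraries made from 200 ng of RNA, per the labels' protocols. The deposited values are the authors' CPM, 1 column per library, matched through the bracketed sample code. Trimmomatic 0.38, Bowtie2, RSEM, edgeR and mm10 are listed without roles, per the submitters' processing notes. The sources used here do not give the annotation or how AAOT was administered. All deposited CPM (100% in each column, relative tolerance 1e-06) were whole multiples of 1 step per column, which gave back the reads. With 1 library per group no count model was run on them and no p-value was computed.

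Log2 ratios used an added 1 CPM and a floor of 10 CPM on the mean of both pools. Intervals are Clopper-Pearson, conditional on the summed reads. The members and lists were chosen with earlier results of these data known. Some genes of the further lists are not reported here and were left out of their counts. Named are all members, the extremes (up to 4 each way) of 4 further lists, chosen key genes, and marker genes where they bear on a member. Lists were described by counts and medians beside all genes. Positions are from RefSeq GRCm38; unique 50-base stretches are from GENCODE M21 longest transcripts, for 37 of 37 genes, of which 4 were under 90%. Steps were tested on simulated reads that held counting error only, which cannot show how they fare with differences between mice, pools or libraries. Alternatives were 4 scalings, 2 added constants and 3 floor settings. The tools were matplotlib 3.10.9, scipy 1.17.1, pandas 2.3.3, numpy 2.4.6 and Python 3.11.15.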

Additional observations from a re-analysis of the deposited data

How the results depend on the processing

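The 30 genes below 0 were 30 or 31 under the 4 other scalings, the added one being Echs1 with upper quartile scaling, and 28 with a floor of 50 CPM, which tests fewer genes. The count at least 25% lower ranged from 6 to 8, being 6 with columns set to the same sum (without Cpt1a and Ehhadh) and 7 with the median gene ratio at 0 (without Cpt1a), and 6 with a floor of 100 CPM and 7 with one of 50 CPM. The median of -0.21 ranged from -0.18 to -0.23 over all settings. Scalings moved all genes by at most 0.036 (log2). With a floor of 50 CPM, which leaves out Vnn1 and Cd36, 0 genes were at least 2-fold lower and 1 was at least 25% higher, the uptake median moved from -0.04 to -0.48 and the regulator median from -0.07 to -0.31. The carnitine median moved from -0.43 to -0.34 with a floor of 1 CPM or none, which adds Cpt1b. The peroxisomal median moved from -0.09 to -0.13 with a floor of 50 or 100 CPM, which leaves out Pex11a. A floor of 100 CPM, added after seeing the data, gave 26 genes below 0, 0 at least 2-fold lower and 1 at least 25% higher, with medians of -0.48 for uptake, -0.34 for the carnitine step and -0.31 for regulators. Of 222 gene values recomputed, 219 moved by at most 50% of the width of their counting interval (log2). The other 3 (Acsl1, Ehhadh and Acaa1b, with columns set to the same sum) moved by more, without changing direction. Depth limits Cpt1b, Pdk4, Ucp2 and Pex11a, whose intervals include equality. Those of Cpt2, Echs1 and Hadh include it too, around ratios nearer to 1. No paired analysis was possible because each group is 1 pooled library.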
